A study of Arabidopsis thaliana with 36 samples.

Results

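Transcripts were counted by RNA sequencing in CASP1::shy2-2/slr-1 roots after 4 h of the synthetic auxin 1-naphthaleneacetic acid (NAA), and compared with roots of the same genotype that received none. The 6 libraries were all those that the labels give to these 2 groups, 3 treated and 3 control, out of 36 libraries in the series, and 20939 of 32678 counted genes had enough reads for a test. Every plant was Arabidopsis thaliana of ecotype Col-0, 7 days old at harvest. Seedlings were moved at 6 days of age to plates with 10 µM NAA, timed so that treatment ended at harvest, or to plates with none, and roots were taken without the shoot and without about 3 mm of the tip. Both groups carry slr-1, which stabilises the repressor IAA14, and shy2-2, which stabilises the repressor IAA3, expressed from the promoter of CASP1. That promoter is active in the differentiated endodermis, so a block of auxin signalling in that cell layer comes on top of the slr-1 mutation, which by itself keeps roots from forming laterals. The other libraries, 3 per group, are slr-1 roots of the same age without the transgene, untreated and at 2, 4, 8, 16 and 24 h of the same NAA dose, and CASP1::shy2-2/slr-1 roots at 2, 8, 16 and 24 h. Libraries were made from poly(A) RNA with a stranded kit and sequenced as single reads. The labels do not say how many plants went into a library, nor whether libraries of a group came from separate cultures, so the p-values measure only the spread between these libraries.

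As background, auxin joins an Aux/IAA repressor to a TIR1/AFB receptor, the repressor is degraded, and ARF transcription factors are released. Genes for Aux/IAA repressors and for enzymes that inactivate auxin are themselves auxin targets, which closes feedback loops. The endodermis encloses the vascular tissue, is sealed by the Casparian strip and by suberin lamellae, and has to give way when a lateral root grows through it.

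The 6 libraries held 39.1 to 41.1 M reads in genes at 4 h and 39.4 to 48.5 M in the controls. The first principal component of these libraries, with 60.3% of the variance, separated the treated libraries (-45.9 to -36.3) from the controls (29.1 to 49.2). The second, with 17.6%, set control replicate 2 (44) apart from the other controls (-19.1 and -15.8). It also set 4 h replicate 1 (-22.4) apart from 4 h replicates 2 (9.7) and 3 (3.5). Library codes of 4 h replicates 2 and 3 end in the letter n and those of the other 4 libraries do not. Among the treated libraries, the one that stood apart is thus the one without the letter. What the letter stands for was not given. Levels below are CPM, the counts scaled by the TMM-corrected library total, in the order of replicates 1, 2 and 3. Changes are log2 fold changes ± standard error with 3 libraries a group, and adjusted p-values are those of edgeR's quasi-likelihood test with Benjamini-Hochberg adjustment over all tested genes, called under 0.05. A gene that passed is said to rise or fall.

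Marker levels of other cell types differed widely. The 7 markers of root tip and root cap, which had been cut off, summed to 0.12 to 1.40 CPM in the controls and to 0.15 to 0.35 CPM at 4 h. The 11 xylem markers, which include the cellulose synthases of secondary walls, summed to 780 to 998 CPM in the controls and to 738 to 795 CPM at 4 h. The 7 markers of shoot and photosynthesis, counted in roots taken without the shoot, summed to 99.0 to 137.5 CPM in the controls and to 35.2 to 61.7 CPM at 4 h. The 2 cortex markers were near 0, at 0.06 to 1.07 CPM in the controls and 0.02 to 0.08 CPM at 4 h, so the cortex was not shown by its markers.

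Neither gene of the stabilised repressors was called. IAA3 (AT1G04240, chromosome 1, 1128149 to 1129689, minus strand, TAIR10.1) had 38.6, 53.3 and 42.6 CPM without NAA and 41.1, 46.6 and 48.0 CPM at 4 h (log2 fold change 0.01 ± 0.12, adjusted p = 0.959). IAA14 (AT4G14550) had 5.99, 8.599 and 5.67 CPM and 5.90, 4.32 and 5.18 CPM (log2 fold change -0.40 ± 0.29, adjusted p = 0.349). In both genes the ranges of the groups overlapped. Reads of the transgene and of the native IAA3 gene enter the same count, and stabilising mutations are not visible in gene counts, so neither level tests the labelled genotype. CASP1 (AT2G36100), the gene whose promoter drives the transgene, fell from 40.9, 74.9 and 44 CPM to 3.45, 10.04 and 19.8 CPM (log2 fold change -2.26 ± 0.64, adjusted p = 0.011), with every treated library below every control. In bulk root sections, fewer cells of a type and less RNA per cell cannot be told apart. The call of CASP1 was lost in 2 of 15 alternatives, whose adjusted p ran from 0.00372 to 0.0658, namely without 4 h replicate 1 (adjusted p = 0.0658) and without 4 h replicate 2 (adjusted p = 0.0524).

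The sequences upstream of the auxin-responsive genes that the results turn on are shown first. They are the 250 bases before the annotated start of 3 Aux/IAA genes and 3 GH3 genes that rose, read from the RefSeq genome TAIR10.1 on the strand of the gene, 5′ to 3′. Capitals mark the letters TGTCTC and TGTCGG, searched on both strands, which are known as elements that ARF factors bind.
IAA19: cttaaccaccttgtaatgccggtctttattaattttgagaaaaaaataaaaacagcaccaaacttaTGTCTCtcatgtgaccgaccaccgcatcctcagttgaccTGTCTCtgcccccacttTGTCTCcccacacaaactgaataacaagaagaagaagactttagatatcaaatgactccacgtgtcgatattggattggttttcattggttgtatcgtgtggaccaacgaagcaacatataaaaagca
IAA5: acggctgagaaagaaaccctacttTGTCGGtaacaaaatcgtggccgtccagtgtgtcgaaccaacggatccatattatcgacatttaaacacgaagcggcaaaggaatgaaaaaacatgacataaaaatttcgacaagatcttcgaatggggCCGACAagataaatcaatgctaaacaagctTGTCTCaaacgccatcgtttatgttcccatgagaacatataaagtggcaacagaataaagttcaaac
IAA13: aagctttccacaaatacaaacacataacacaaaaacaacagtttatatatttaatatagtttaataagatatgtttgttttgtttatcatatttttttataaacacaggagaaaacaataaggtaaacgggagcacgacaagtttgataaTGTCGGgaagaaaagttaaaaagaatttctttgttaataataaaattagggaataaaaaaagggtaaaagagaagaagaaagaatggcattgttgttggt
GH3.2: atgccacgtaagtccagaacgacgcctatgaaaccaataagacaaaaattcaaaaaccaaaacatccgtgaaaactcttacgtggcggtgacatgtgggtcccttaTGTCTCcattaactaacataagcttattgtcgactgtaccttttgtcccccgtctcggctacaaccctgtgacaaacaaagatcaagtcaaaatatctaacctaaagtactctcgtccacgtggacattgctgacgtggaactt
GH3.3: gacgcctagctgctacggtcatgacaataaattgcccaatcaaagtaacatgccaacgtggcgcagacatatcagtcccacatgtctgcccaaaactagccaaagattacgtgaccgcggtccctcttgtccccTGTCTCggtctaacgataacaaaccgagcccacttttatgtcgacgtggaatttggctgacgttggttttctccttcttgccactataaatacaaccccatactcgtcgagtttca
GH3.5: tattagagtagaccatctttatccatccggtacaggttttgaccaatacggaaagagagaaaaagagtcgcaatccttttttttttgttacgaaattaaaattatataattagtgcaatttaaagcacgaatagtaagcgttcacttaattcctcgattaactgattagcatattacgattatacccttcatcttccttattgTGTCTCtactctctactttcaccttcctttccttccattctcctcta
These windows lie at chr3:5263751-5264000 (plus strand) for IAA19, chr1:5366498-5366747 (minus strand) for IAA5, chr2:14116090-14116339 (minus strand) for IAA13, chr4:17579368-17579617 (plus strand) for GH3.2, chr2:9866563-9866812 (minus strand) for GH3.3 and chr4:13653329-13653578 (plus strand) for GH3.5. IAA19 holds TGTCTC at 184, 145 and 128 bases before the start. IAA5 holds TGTCGG at 226 bases, its reverse complement CCGACA at 97 bases and TGTCTC at 67 bases before the start. The other 4 hold 1 match each, at 100 bases in IAA13, 144 in GH3.2, 116 in GH3.3 and 47 in GH3.5. Of the same windows of all 20312 tested protein-coding genes, 10.6% hold TGTCTC, 4.63% hold TGTCGG and 14.8% hold either. Either element stood in 13 of the 27 tested Aux/IAA windows (48.1%) and in 4 of the 12 windows of auxin-inactivating genes (33.3%). It stood in 17% of the windows of the 525 protein-coding genes that rose at least 2-fold and in 12.5% of those of the 640 that fell at least 2-fold. Several genes with large rises (IAA11, LBD16, LBD18, LBD29, WOX11 and MAKR4) have no match in this window, nor have CASP1, CASP2, CASP4, ESB1 and PER64. Their windows are not printed, and all printed windows hold a match, so those printed do not stand for rising genes in general. A match is a description of the letters only.

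Transcripts of a large share of the tested genes differed after 4 h of NAA. Of the genes tested, 4715 (22.5%) were called, 2222 rising (10.6%) and 2493 falling (11.9%). For 4512 genes (21.5%) the call also came with no overlap between the 3 treated and the 3 control libraries. Most changes were small: the median log2 fold change was 0.55 among the rising and -0.65 among the falling genes, and 535 genes rose and 658 fell at least 2-fold. The median of all tested genes was -0.02. The balance of rises and falls depended on scaling. Rises made up 47.1% of the calls with TMM factors and 36.8% (1769 rising, 3039 falling) with scaling by total counts, which moved the median of all genes by -0.04. Leaving out 4 h replicate 2 lowered the count to 2985, of which 1366 fell. Without control replicate 2, the control that stood apart, 4484 genes were called.

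**Figure D1:**
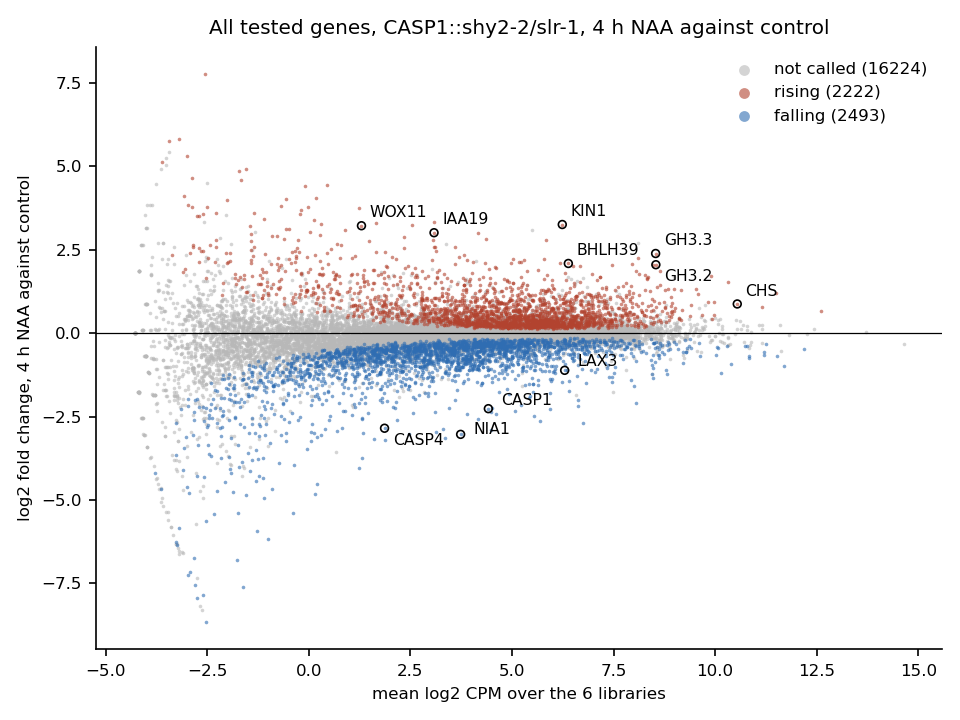
Log2 fold change at 4 h of NAA against control (vertical axis) and mean log2 CPM over the 6 libraries (horizontal axis) for the 20939 tested genes, with 2222 rising genes in red, 2493 falling genes in blue and the others in grey. Changes of at least 2-fold were present over the whole range of levels, and circles mark 11 genes described in the text.

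The 12 largest rises, among genes of sufficient level and without overlap between groups, included auxin-responsive genes and genes of stress and secondary metabolism. WOX11, a homeobox factor of adventitious root founder cells, rose from 0.765, 0.776 and 0.788 CPM to 7.75, 6.29 and 7.68 CPM (log2 fold change 3.22 ± 0.21, adjusted p = 7.44e-11). MAKR4, a membrane-associated kinase regulator of lateral root spacing, rose from 1.53, 0.694 and 0.839 to 12.5, 7.14 and 10.2 CPM (3.298 ± 0.35, adjusted p = 1.82e-07). IAA19 rose from 3.58, 2.14 and 3.28 to 26.4, 23.8 and 21.8 CPM (3.01 ± 0.20, adjusted p = 7.44e-11). In these 3 genes the lowest treated library was several times the highest control. Lack of overlap was a condition of this list, so it adds no support to these calls. KIN1, a cold- and abscisic acid-induced protein, rose from 24.3, 19.8 and 31.1 to 183, 200.5 and 334 CPM (3.25 ± 0.22, adjusted p = 1.10e-10). The largest of these rises was that of AT5G52050, a MATE efflux protein, from 0.641, 0.715 and 0.509 to 8.03, 6.89 and 10.4 CPM (3.74 ± 0.45, adjusted p = 1.27e-06). BGLU28, a beta-glucosidase, rose by 3.23 ± 0.41, the phospholipase PLA2A by 2.88 ± 0.43, the sinapoyltransferase SNG1 by 2.79 ± 0.65 and the oxidoreductase AT1G60750 by 2.80 ± 0.39. The rise of AT1G60750 was widely spread, from 13.8, 36.7 and 20.12 CPM to 254, 138 and 101 CPM. So was that of AT2G37870, a lipid transfer-like protein, from 8.39, 3.49 and 8.65 to 82.3, 52.2 and 30.2 CPM (3.01 ± 0.43, adjusted p = 1.17e-05). The senescence gene SEN1 also met the naming rule, at 6.61, 0.654 and 2.87 CPM in the controls and 13.7, 39.5 and 47.2 CPM at 4 h, with a standard error above 1 (3.33 ± 1.18, adjusted p = 0.0421). The call of SEN1 was lost in 9 of 15 alternatives, whose adjusted p ran from 0.0245 to 0.265, among them without 4 h replicate 2 or 3 or control replicate 1, 2 or 3 (adjusted p from 0.0508 to 0.131).

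The 12 largest falls, chosen under the same conditions of level and lack of overlap, included genes of the Casparian strip and of the cell wall. CASP4, a scaffold protein of the Casparian strip domain, fell from 7.40, 13.1 and 9.03 CPM to 0.925, 1.45 and 1.72 CPM (log2 fold change -2.85 ± 0.71, adjusted p = 0.00471). AT2G39430, a dirigent-like protein, fell from 26.0, 47.3 and 29.6 to 1.28, 3.07 and 7.29 CPM (-3.15 ± 0.85, adjusted p = 0.00847). In both genes the highest treated library lay well below the lowest control, where lack of overlap was again a condition of the list. Falls of similar size were seen in the extensin-like ELP (-3.73 ± 1.04), the copper protein UCC1 (-3.01 ± 0.65), the pectin lyase-like AT5G14650 (-2.88 ± 0.59), MSRB9, a methionine sulfoxide reductase (-2.89 ± 0.63), AT5G42610 (-3.002 ± 0.57) and AT4G35720 (-2.95 ± 0.50). NIA1, a nitrate reductase, fell from 54.2, 34.9 and 51.2 to 7.40, 0.799 and 8.96 CPM (-3.03 ± 0.85, adjusted p = 0.0111). The call of NIA1 was lost in 1 of 15 alternatives, whose adjusted p ran from 0.000433 to 0.0664, namely without 4 h replicate 2 (adjusted p = 0.0664). ATCSLB05, a cellulose synthase-like protein, fell from 10.06, 9.48 and 12.2 to 0.175, 1.52 and 1.82 CPM (-3.17 ± 0.86, adjusted p = 0.00885). The call of ATCSLB05 was lost in 1 of 14 alternatives, whose adjusted p ran from 0.00233 to 0.0501, namely without 4 h replicate 1 (adjusted p = 0.0501). HRGP1, a hydroxyproline-rich wall protein, stood at 17.5, 7.93 and 35.4 CPM in the controls and at 0, 3.52 and 0.130 CPM at 4 h, with a large standard error (-4.04 ± 1.47, adjusted p = 0.0468). The call of HRGP1 was lost in 9 of 14 alternatives, whose adjusted p ran from 0.021 to 0.149, among them without 4 h replicate 1 or 3 or control replicate 1 or 3 (adjusted p from 0.0763 to 0.149). HRGP1 had a log2 fold change of -8.22 without 4 h replicate 2. The cause of these losses was not tested. For CASP4 and ELP the call was lost in 1 alternative, that of the libraries without a suffix alone, which leaves 1 treated library.

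**Figure D2:**
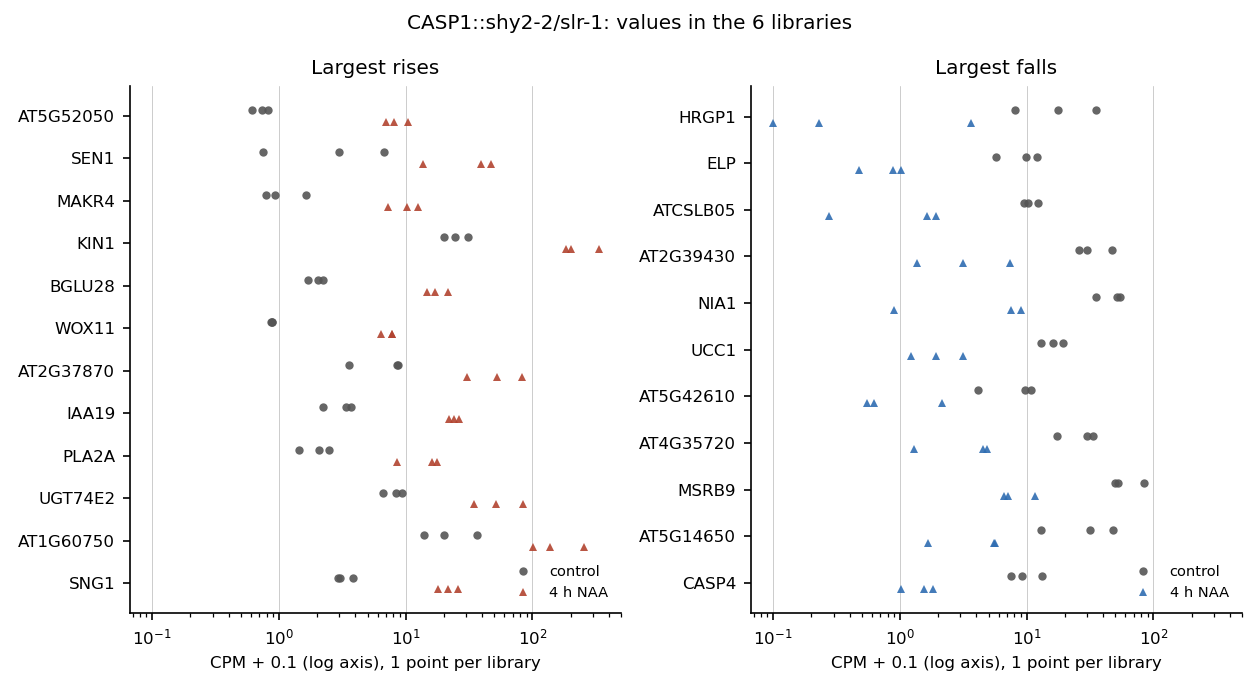
Values in CPM + 0.1 on a log axis, 1 point per library, for the 12 largest rises (left) and 11 of the 12 largest falls (right) among called genes without overlap between groups and with an average log2 CPM of 1 or more. Circles are the 3 control libraries and triangles the 3 libraries at 4 h; SEN1 and HRGP1 have the widest spread within a group.

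The 8 smallest p-values among the rises included those of WOX11, IAA19 and KIN1 above and of genes with smaller folds and close replicates. NHX4, a vacuolar sodium/proton exchanger, rose from 21.8, 20.998 and 19.1 CPM to 68.1, 71.3 and 59.9 CPM (log2 fold change 1.69 ± 0.13, adjusted p = 5.97e-10). The NAC factor ATAF2 rose from 66.5, 93.4 and 75.6 to 248, 247 and 216 CPM (1.596 ± 0.12, adjusted p = 9.62e-10). AT5G64250, an aldolase-type protein, rose by 1.69 ± 0.11 and BGLU10, a beta-glucosidase, by 1.02 ± 0.08. Among the falls, AT1G65985 had the smallest p and fell from 17.2, 15.9 and 16.6 to 6.45, 5.77 and 8.41 CPM (-1.27 ± 0.10, adjusted p = 2.66e-09). The next included an acyltransferase (AT4G15390, -1.59 ± 0.15), a peroxidase (AT4G30170, -2.34 ± 0.25) and a GDSL lipase (AT3G62280, -2.01 ± 0.22). Also among them were the glucan phosphorylase PHS2 (-0.85 ± 0.09) and the mitotic activator CDC20.2 (-0.95 ± 0.10).

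Aux/IAA repressor genes rose more often than they fell. Of 27 tested members, 15 rose, by 0.35 to 3.01, 2 fell and 10 were not called, with a median log2 fold change of 0.45 against -0.02 for all genes. IAA5 rose from 0.617, 0.511 and 0.738 CPM to 4.90, 3.15 and 3.83 CPM (2.68 ± 0.26, adjusted p = 3.03e-08). IAA13 rose from 53.8, 44.7 and 42.4 to 160.5, 136 and 124 CPM (1.58 ± 0.14, adjusted p = 7.19e-09). IAA30 rose from 1.73, 0.899 and 1.45 to 8.90, 6.77 and 6.07 CPM (2.42 ± 0.26, adjusted p = 1.49e-07). Every treated library of these repressor genes lay above every control. IAA11 rose by 1.43 ± 0.14, while IAA17 (-0.29 ± 0.14, adjusted p = 0.135) and IAA28 (-0.16 ± 0.18, adjusted p = 0.572) were not called. The 2 members that fell, named after their values were seen, were IAA27, from 86.8, 91.6 and 85.9 to 58.2, 59.3 and 71.6 CPM (-0.48 ± 0.09, adjusted p = 0.000396), and IAA8 (-0.34 ± 0.09, adjusted p = 0.00644). The call of IAA8 was lost in 3 of 15 alternatives, whose adjusted p ran from 0.00204 to 0.0962, namely without 4 h replicate 2 (adjusted p = 0.059), without control replicate 1 (adjusted p = 0.0659) and with libraries without a suffix alone (adjusted p = 0.0962).

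Genes of enzymes that remove active auxin rose as well. Of 12 tested genes for conjugation, oxidation and glycosylation 8 rose, by 0.72 to 2.82, and none fell, with a median of 0.86. The GH3 proteins link auxin to amino acids. GH3.3 rose from 143, 197 and 152 CPM to 1041, 806 and 722 CPM (2.38 ± 0.23, adjusted p = 3.00e-08). GH3.2 rose from 165, 218 and 171 to 710.1, 880.2 and 697 CPM (2.05 ± 0.17, adjusted p = 2.54e-09). GH3.5 rose from 18.1, 13.95 and 13.8 to 72.1, 61.8 and 60.6 CPM (2.09 ± 0.17, adjusted p = 1.89e-09). None of these groups overlapped. UGT74E2, which glycosylates indole-3-butyric acid, rose from 8.34, 6.52 and 9.18 to 83.9, 51.3 and 34.6 CPM (2.82 ± 0.34, adjusted p = 1.19e-06). Of a pair of dioxygenase genes that lie close together and are listed for auxin oxidation, AT1G14130 rose from 59.7, 51.9 and 62.5 to 142, 108 and 91.9 CPM (0.98 ± 0.19, adjusted p = 0.000568). AT1G14120 did not pass, at 330.0, 303 and 375 and 320.4, 292 and 263 CPM (-0.21 ± 0.13, adjusted p = 0.28). GH3.17 was not called either (0.04 ± 0.16, adjusted p = 0.904).

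Receptor and ARF genes changed in part. The share called among all tested genes was 22.5%. Of the 6 receptor genes, AFB3 fell from 53.6, 52.2 and 51.8 CPM to 47.6, 43.9 and 43.1 CPM (-0.23 ± 0.06, adjusted p = 0.00752) and 5 were not called, among them AFB2 (-0.03 ± 0.06) and AFB5 (0.01 ± 0.07). The call of AFB3 was lost in 3 of 15 alternatives, whose adjusted p ran from 0.00135 to 0.294, namely without 4 h replicate 2 (adjusted p = 0.0544), without control replicate 1 (adjusted p = 0.0593) and with libraries without a suffix alone (adjusted p = 0.294). Of 15 ARF genes 6 were called, of which 2 rose and 4 fell, with a median of -0.15. ARF11 fell from 10.3, 11.2 and 10.5 to 4.30, 4.99 and 5.94 CPM (-1.07 ± 0.15, adjusted p = 1.13e-05). ARF6, an activator, fell from 125, 95.0 and 132 to 79.7, 61.2 and 68.0 CPM (-0.75 ± 0.13, adjusted p = 0.000124). The activator ARF7, which acts with IAA14 in lateral root initiation, stood at 87.2, 78.9 and 101 and 98.8, 90.3 and 86.7 CPM (0.05 ± 0.11, adjusted p = 0.801). The 2 rises were those of ARF4 (0.41 ± 0.14) and ARF9 (0.39 ± 0.13), and smaller falls were those of ARF8 (-0.39 ± 0.12) and ARF17 (-0.25 ± 0.07), of which ARF4 was named after its values were seen. The call of ARF4 was lost in 8 of 15 alternatives, whose adjusted p ran from 1.95e-05 to 0.215, among them without 4 h replicate 1 or 2 or control replicate 1, 2 or 3 (adjusted p from 0.0506 to 0.215). The call of ARF9 was lost in 4 of 15 alternatives, whose adjusted p ran from 9.86e-06 to 0.218, namely without 4 h replicate 1 or control replicate 1 or 3 (adjusted p from 0.0675 to 0.218) and with the groups compared alone (adjusted p = 0.0781). ARF9 had a log2 fold change of 0.23 without 4 h replicate 1. The call of ARF8 was lost in 7 of 15 alternatives, whose adjusted p ran from 0.00855 to 0.328, among them without 4 h replicate 2 or 3 or control replicate 1 or 3 (adjusted p from 0.056 to 0.121). The call of ARF17 was lost in 4 of 15 alternatives, whose adjusted p ran from 0.00523 to 0.123, among them without 4 h replicate 1 (adjusted p = 0.0666) and without control replicate 1 (adjusted p = 0.123).

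Auxin transport genes changed in both directions. Of 22 tested, 7 rose, 3 fell and 12 were not called, with a median of 0.17. Among all tested genes 10.6% rose and 11.9% fell, so the falls were near the share of all genes. The efflux carrier PIN3 rose from 36.4, 28.2 and 32.6 CPM to 63.0, 51.3 and 50.0 CPM (0.76 ± 0.16, adjusted p = 0.00129). The influx carrier LAX1 rose from 21.95, 20.6 and 22.9 to 35.9, 40.0 and 32.2 CPM (0.72 ± 0.12, adjusted p = 5.65e-05). LAX3, an influx carrier known from the cells overlying lateral root primordia, fell from 119.9, 100.4 and 127 to 48.9, 56.6 and 55.1 CPM (-1.11 ± 0.22, adjusted p = 0.000464). Its groups were fully separated, in the opposite direction to LAX1. The endoplasmic reticulum carrier PILS3 rose from 108, 118 and 108 to 238, 215 and 188 CPM (0.94 ± 0.11, adjusted p = 5.79e-07). AUX1 (-0.12 ± 0.10, adjusted p = 0.423) and ABCB1 (0.20 ± 0.12, adjusted p = 0.261) were not called. The other 2 falls were those of the kinase PID (-0.72 ± 0.24, adjusted p = 0.0328) and of PIN5, named after its values were seen (-1.11 ± 0.37, adjusted p = 0.0324). The call of PID was lost in 8 of 14 alternatives, whose adjusted p ran from 0.0144 to 0.246, among them without 4 h replicate 1, 2 or 3 or control replicate 1 or 3 (adjusted p from 0.0558 to 0.246). PID had a log2 fold change of -0.45 without control replicate 3. The call of PIN5 was lost in 5 of 15 alternatives, whose adjusted p ran from 0.0212 to 0.13, namely without 4 h replicate 1 or 3 or control replicate 2 or 3 (adjusted p from 0.0845 to 0.13) and with libraries without a suffix alone (adjusted p = 0.0803).

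Of 9 tested auxin synthesis genes, 3 fell, none rose and the median was -0.71, where 11.9% of all tested genes fell. TAR2, an aminotransferase of the indole-3-pyruvate pathway, fell from 31.3, 31.4 and 31.1 CPM to 17.6, 10.9 and 15.1 CPM (-1.10 ± 0.19, adjusted p = 0.000147). The flavin monooxygenase YUC6 fell from 69.8, 84.9 and 73.0 to 43.5, 46.2 and 49.9 CPM (-0.71 ± 0.17, adjusted p = 0.00353). In both the groups did not overlap. TAA1, the aminotransferase of the same step, at a low level, fell from 1.21, 0.654 and 1.20 to 0.200, 0.175 and 0.313 CPM (-2.13 ± 0.61, adjusted p = 0.0126). The call of TAA1 was lost in 1 of 14 alternatives, whose adjusted p ran from 0.00281 to 0.0634, namely without 4 h replicate 2 (adjusted p = 0.0634). YUC8 (-0.36 ± 0.23) and YUC9 (-0.14 ± 0.23) were not called.

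Several genes of lateral root initiation rose. Of 18 tested, 8 rose, none fell and the median was 0.91. The LBD factors are direct targets of ARF7 and ARF19 that act at the first asymmetric division. LBD29 rose from 0.173, 0.654 and 0.331 CPM to 5.25, 2.90 and 3.44 CPM (3.26 ± 0.34, adjusted p = 1.49e-07). LBD16 rose from 0.863, 0.776 and 0.788 to 2.78, 1.80 and 1.82 CPM (1.40 ± 0.19, adjusted p = 6.06e-06). LBD18 rose from 3.404, 2.76 and 3.43 to 6.73, 7.19 and 6.90 CPM (1.12 ± 0.15, adjusted p = 3.78e-06). All 3 stayed at low levels, below 8 CPM in every library, with no overlap between groups. PUCHI, an AP2-type factor of young primordia, was counted at 0.0247, 0 and 0.0509 CPM in the controls and at 0.300, 0.325 and 0.313 CPM at 4 h (adjusted p = 0.000306). GATA23, which marks pericycle founder cells, was at or below 0.0499 CPM in all 6 libraries and was not called. PLT5 (-0.78 ± 0.35, adjusted p = 0.105) and ACR4 (-0.17 ± 0.12, adjusted p = 0.358) were not called either. LRP1, a factor expressed in primordia and named after its values were seen, rose from 1.97, 1.59 and 1.73 to 3.48, 2.52 and 2.63 CPM (0.71 ± 0.24, adjusted p = 0.0315). The call of LRP1 was lost in 3 of 15 alternatives, whose adjusted p ran from 0.011 to 0.135, namely without 4 h replicate 1 or control replicate 2 or 3 (adjusted p from 0.0763 to 0.135). LBD17, named after its values were seen, stood at 0, 0 and 0.0254 CPM and 0.325, 0.175 and 0.313 CPM (adjusted p = 0.000529). No fold is given for PUCHI and LBD17, since their controls held few reads or none.

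Of 9 tested genes for cell separation in the tissue that a primordium crosses, 3 fell, none rose and 6 were not called. Their median was -0.85, and 11.9% of all tested genes fell. The 3 falls are those of LAX3 and AT5G14650, given above, and of the expansin EXPA14, from 5.25, 3.02 and 6.31 CPM to 0.775, 1.32 and 1.33 CPM (-2.08 ± 0.63, adjusted p = 0.0173). The call of EXPA14 was lost in 3 of 14 alternatives, whose adjusted p ran from 0.00561 to 0.0777, namely without 4 h replicate 1 or 2 or control replicate 3 (adjusted p from 0.0503 to 0.0777). The receptor kinases HAE (-0.43 ± 0.37, adjusted p = 0.446) and HSL2 (0.18 ± 0.16, adjusted p = 0.462), which bind the separation peptide IDA, were not called, and IDA itself was at or below 0.331 CPM.

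Several Casparian strip genes fell. Of 15 tested, 7 fell, none rose and the median was -0.63. With RLE scaling, and likewise without control replicate 2, 1 rose and 7 fell, and with the libraries without a suffix alone 1 rose and 5 fell. CASP2 fell from 10.2, 17.2 and 13.4 CPM to 2.401, 2.92 and 2.42 CPM (-2.39 ± 0.63, adjusted p = 0.00713). ESB1, a dirigent-domain protein of the strip, fell from 65.1, 105 and 67.1 to 21.6, 25.9 and 35.3 CPM (-1.52 ± 0.30, adjusted p = 0.000492). PER64, a peroxidase of strip lignification, fell from 41.7, 71.7 and 52.9 to 3.83, 10.8 and 20.6 CPM (-2.24 ± 0.57, adjusted p = 0.00565). In these genes, as in CASP1 and CASP4 above, all treated libraries lay below all controls. The call of CASP2 was lost with the libraries without a suffix alone, as for CASP4. Another fall was that of the peptide gene AT2G16385 (-0.63 ± 0.17, adjusted p = 0.00872), while the related AT4G34600 was not called (0.13 ± 0.10, adjusted p = 0.378). The call of AT2G16385 was lost in 2 of 15 alternatives, whose adjusted p ran from 0.00169 to 0.0971, namely without 4 h replicate 2 (adjusted p = 0.0971) and with the groups compared alone (adjusted p = 0.0569). The regulators were not called. MYB36, which switches on strip genes, stood at 7.08, 6.62 and 6.41 and 3.401, 9.06 and 7.996 CPM (0.03 ± 0.32, adjusted p = 0.97). SHR (-0.10 ± 0.09), SCR (-0.20 ± 0.11), the receptor kinase GSO1 (-0.32 ± 0.20) and the oxidase RBOHF (0.21 ± 0.08) were not called. Among the treated libraries, replicate 1 had the lowest and replicate 3 the highest level of CASP1 and PER64.

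Some suberin genes, which act in the same cell layer, rose. Of 16 tested, 5 rose, by 0.70 to 1.34, 1 fell and 10 were not called, with a median of 0.21, where 10.6% of all tested genes rose and 11.9% fell. Without control replicate 2, and likewise with the libraries without a suffix alone, 7 rose and 2 fell. ASFT, the feruloyltransferase of suberin aromatics, rose from 219, 317 and 245 CPM to 574, 429 and 405 CPM (0.85 ± 0.19, adjusted p = 0.00215). The acyltransferase GPAT7 rose from 3.48, 5.78 and 5.67 to 17.7, 9.86 and 10.3 CPM (1.34 ± 0.32, adjusted p = 0.00289). The elongase KCS20 rose from 98.8, 106 and 113 to 215, 185 and 156 CPM (0.81 ± 0.18, adjusted p = 0.00145). In each of these, 4 h replicate 1 was the highest library. The exporter ABCG6 rose by 0.97 ± 0.27 (adjusted p = 0.0102). The call of ABCG6 was lost in 2 of 15 alternatives, whose adjusted p ran from 5.92e-05 to 0.0676, namely without 4 h replicate 1 (adjusted p = 0.0676) and without control replicate 1 (adjusted p = 0.0524). The elongase KCS2, named after its values were seen, rose by 0.70 ± 0.20 (adjusted p = 0.014). The call of KCS2 was lost in 2 of 15 alternatives, whose adjusted p ran from 0.000541 to 0.128, namely without 4 h replicate 1 (adjusted p = 0.128) and without control replicate 1 (adjusted p = 0.0537). KCS2 had a log2 fold change of 0.45 without 4 h replicate 1. The reductase FAR1, which makes primary alcohols of suberin, fell from 118, 62.6 and 116 to 44.3, 40.1 and 63.8 CPM (-0.999 ± 0.18, adjusted p = 0.000197). FAR4 (-0.09 ± 0.11), FAR5 (0.13 ± 0.14) and ABCG20 (0.29 ± 0.22) were not called. Of 7 MYB factors of suberin, MYB41 rose from 4.12, 6.13 and 5.19 to 20.08, 12.7 and 11.0 CPM (1.502 ± 0.33, adjusted p = 0.00173) and MYB107 from 2.29, 2.53 and 2.42 to 7.23, 4.64 and 4.01 CPM (1.13 ± 0.30, adjusted p = 0.00804); 5 were not called. Without control replicate 2, 5 of these 7 factors were called, all rising. The call of MYB107 was lost in 1 of 15 alternatives, whose adjusted p ran from 3.84e-05 to 0.0612, namely without 4 h replicate 1 (adjusted p = 0.0612). Of 3 GDSL lipases of suberin, AT1G74460 was called (0.57 ± 0.20, adjusted p = 0.042). The call of AT1G74460 was lost in 6 of 15 alternatives, whose adjusted p ran from 0.00919 to 0.188, among them without 4 h replicate 1 or 2 or control replicate 1 or 3 (adjusted p from 0.0585 to 0.188).

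**Figure D3:**
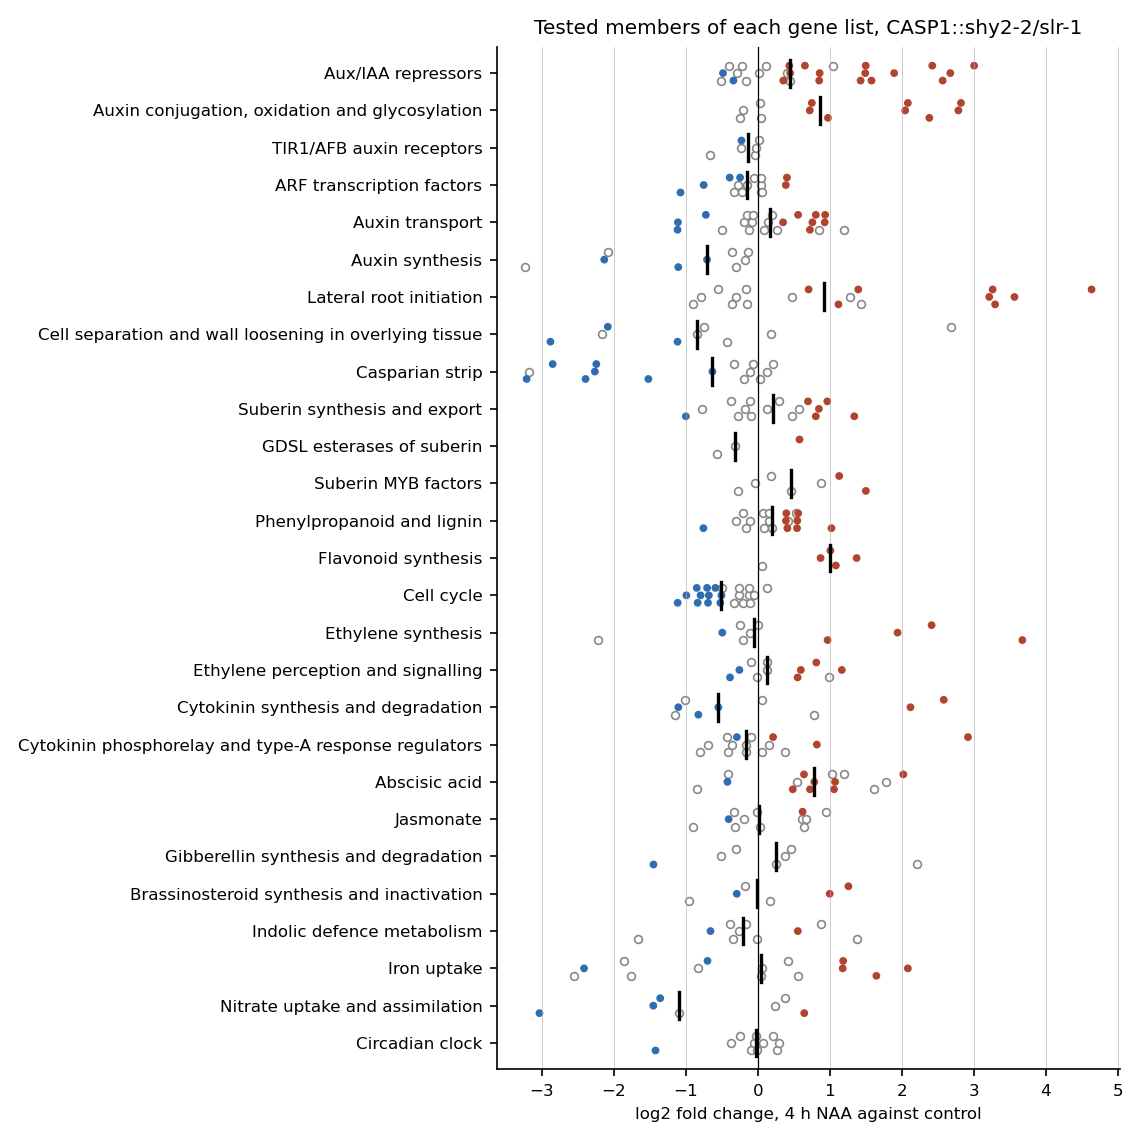
Log2 fold change at 4 h of NAA against control (horizontal axis) for each tested member of the gene lists (1 row per list). Filled red points rose, filled blue points fell, open points were not called and black bars are list medians; the bars lie at 0.86 for auxin inactivation, 0.91 for lateral root initiation and -0.63 for the Casparian strip.

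Some phenylpropanoid genes and most flavonoid genes rose. Of 19 tested genes for lignin and its precursors, 7 rose, by 0.39 to 1.02, and 1 fell, with a median of 0.19. PAL4, which starts the pathway, rose from 114, 116 and 131 CPM to 266, 257 and 211 CPM (1.02 ± 0.17, adjusted p = 5.54e-05). PAL1 (0.43 ± 0.18, adjusted p = 0.0981) and PAL2 (0.19 ± 0.18, adjusted p = 0.495), of the same gene family, were not called. The following entry genes C4H (0.41 ± 0.13, adjusted p = 0.025) and 4CL1 (0.40 ± 0.14, adjusted p = 0.0393) rose. Both were named after their values were seen, and their calls were not followed through the alternatives. The later CYP98A3 rose from 149, 206 and 164.4 to 274, 245 and 241 CPM (0.55 ± 0.12, adjusted p = 0.00134). The 1 fall was FAH1, named after its values were seen (-0.76 ± 0.25, adjusted p = 0.031). The call of FAH1 was lost in 4 of 15 alternatives, whose adjusted p ran from 0.00203 to 0.15, namely without 4 h replicate 1 or 2 or control replicate 1 or 2 (adjusted p from 0.0693 to 0.15). Of 5 flavonoid genes, 4 rose and the median was 1.01. Chalcone synthase CHS rose from 1200.0, 1128 and 992 to 2208, 2039.5 and 1832 CPM (0.87 ± 0.17, adjusted p = 0.000572). Chalcone isomerase CHI rose from 149, 173 and 140.3 to 373, 319.8 and 287 CPM (1.09 ± 0.18, adjusted p = 8.51e-05), F3H by 1.37 ± 0.31 and the flavonol synthase FLS1 by 1.01 ± 0.25. Their regulator MYB12 stood at 11.8, 29.3 and 13.0 CPM and 17.9, 18.0 and 20.9 CPM and was not called (0.06 ± 0.42, adjusted p = 0.937).

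Many cell cycle genes fell. Of 21 tested, 11 fell, with log2 fold changes from -1.11 to -0.50, none rose and the median was -0.51. The mitotic cyclin CYCB1;1 fell from 6.66, 5.35 and 6.46 CPM to 2.58, 2.62 and 3.33 CPM (-1.11 ± 0.16, adjusted p = 1.79e-05). CYCB1;2 fell from 25.01, 21.5 and 23.98 to 11.1, 12.1 and 12.2 CPM (-0.99 ± 0.12, adjusted p = 1.15e-06). CDC20.1, an activator of the anaphase-promoting complex, fell from 26.2, 24.7 and 26.0 to 15.3, 15.6 and 13.4 CPM (-0.79 ± 0.11, adjusted p = 7.15e-06). The groups did not overlap, and replicates were close. Falls were also seen in the mitotic kinase CDKB2;1 (-0.69 ± 0.11), in CYCB1;4 (-0.70 ± 0.12) and in MYB3R-4, an activator of mitotic genes (-0.81 ± 0.13). CDKA;1, which acts through the whole cycle (-0.05 ± 0.04, adjusted p = 0.465), and the DNA replication gene MCM5 (-0.12 ± 0.11, adjusted p = 0.465) were not called. The 11 falls also included, named after their values were seen, those of the G1 cyclin CYCD3;1 (-0.85 ± 0.25, adjusted p = 0.0139) and of CYCA2;4, an A-type cyclin (-0.84 ± 0.17, adjusted p = 0.000761). The call of CYCD3;1 was lost in 3 of 15 alternatives, whose adjusted p ran from 0.00591 to 0.095, namely without 4 h replicate 2 (adjusted p = 0.095), without control replicate 1 (adjusted p = 0.0791) and with suffix n as a term (adjusted p = 0.0564). The markers of the root tip, where most divisions take place, were near 0 in both groups, as given above.

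Other hormone pathways changed in part, where 22.5% of all tested genes were called. Of 10 ethylene synthesis genes 4 rose and 1 fell. The rate-limiting ACC synthase ACS6 rose from 10.6, 17.0 and 10.4 CPM to 59.7, 46.7 and 40.1 CPM (1.94 ± 0.28, adjusted p = 1.23e-05). ACS8 rose from 0.345, 0.102 and 0.280 to 4.58, 1.57 and 2.97 CPM (3.68 ± 0.68, adjusted p = 0.000262), and ACS7 and ACS11 rose by 0.97 ± 0.26 and 2.42 ± 0.52. The ACC oxidase ACO1 fell by 0.49 ± 0.14 (adjusted p = 0.011). The call of ACO1 was lost in 2 of 15 alternatives, whose adjusted p ran from 0.00178 to 0.116, namely without 4 h replicate 2 (adjusted p = 0.116) and with the groups compared alone (adjusted p = 0.0526). ACO1 had a log2 fold change of -0.33 without 4 h replicate 2. Ethylene-inducible EBF2, which targets EIN3 for degradation, rose from 84.4, 83.2 and 69.8 to 175, 172 and 186 CPM (1.17 ± 0.11, adjusted p = 1.09e-08). The receptors ERS1, ERS2 and ETR2 rose by 0.55 ± 0.08, 0.60 ± 0.12 and 0.81 ± 0.15, and EBF1 fell by 0.39 ± 0.09. EIN3 (0.13 ± 0.11) and CTR1 (-0.01 ± 0.08) were not called, and EIN2, named after its values were seen, fell (-0.26 ± 0.09). The call of EIN2 was lost in 10 of 15 alternatives, whose adjusted p ran from 0.0142 to 0.583, among them without 4 h replicate 2 or 3 or control replicate 1 or 3 (adjusted p from 0.107 to 0.366). EIN2 had a log2 fold change of -0.15 without control replicate 3.

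Among 9 genes of cytokinin turnover, 2 rose, which encode oxidases, and 3 fell. The cytokinin oxidase CKX1 rose from 4.34, 2.96 and 3.31 CPM to 21.3, 22.3 and 19.9 CPM (2.58 ± 0.19, adjusted p = 4.77e-10). CKX6 rose from 9.004, 6.50 and 8.06 to 37.5, 34.8 and 30.1 CPM (2.12 ± 0.22, adjusted p = 9.98e-08). The synthesis gene IPT3 fell from 24.002, 43.4 and 30.4 to 8.80, 16.7 and 20.003 CPM (-1.10 ± 0.27, adjusted p = 0.00391). Its homologue IPT5 fell as well (-0.83 ± 0.21, adjusted p = 0.00456). The call of IPT5 was lost in 3 of 15 alternatives, whose adjusted p ran from 0.000198 to 0.107, among them without control replicate 2 (adjusted p = 0.106). IPT5 had a log2 fold change of -0.41 without control replicate 2. CKX5 was not called, at 31.6, 25.9 and 30.9 and 31.3, 34.2 and 26.8 CPM (0.06 ± 0.13), and CKX4 fell (-0.55 ± 0.20). The call of CKX4 was lost in 8 of 15 alternatives, whose adjusted p ran from 0.029 to 0.186, among them without 4 h replicate 1 or 3 or control replicate 1, 2 or 3 (adjusted p from 0.0972 to 0.186). Of 15 genes of the phosphorelay and type-A response regulators, 3 rose and 1 fell, near the 22.5% called among all tested genes. AHP4 rose from 0.173, 0.225 and 0.153 to 1.80, 1.099 and 1.38 CPM (2.92 ± 0.48, adjusted p = 6.79e-05), and ARR4 (-0.10 ± 0.13) and ARR8 (-0.16 ± 0.10) were not called. Of 6 brassinosteroid genes, the inactivating enzymes BAS1 and CYP72C1 rose by 0.9996 ± 0.16 and 1.26 ± 0.21, while the synthesis genes DWF4 (-0.18 ± 0.18) and CPD (0.17 ± 0.18) were not called and ROT3 fell (-0.29 ± 0.09). The call of ROT3 was lost in 5 of 15 alternatives, whose adjusted p ran from 0.000708 to 0.193, namely without 4 h replicate 1 or 2 or control replicate 1 or 3 (adjusted p from 0.0784 to 0.193) and with the groups compared alone (adjusted p = 0.108). ROT3 had a log2 fold change of -0.19 without 4 h replicate 1. Of 7 gibberellin genes GA20OX1, a synthesis enzyme at a low level, fell from 0.789, 1.43 and 0.763 to 0.475, 0.375 and 0.234 CPM (-1.46 ± 0.44, adjusted p = 0.0167), and 6 were not called. The call of GA20OX1 was lost in 4 of 14 alternatives, whose adjusted p ran from 0.00941 to 0.24, namely without 4 h replicate 2 or 3 or control replicate 2 (adjusted p from 0.0553 to 0.108) and with libraries without a suffix alone (adjusted p = 0.24).

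Several abscisic acid genes rose. Of 15 abscisic acid genes 7 rose, by 0.49 to 2.02, and 1 fell, with a median of 0.79. RD29A, a dehydration-inducible protein, rose from 32.5, 54.7 and 50.6 CPM to 129, 195 and 236 CPM (2.02 ± 0.23, adjusted p = 3.76e-07). The phosphatases ABI1 and ABI2, which hold the response back and are induced by it, rose from 83.8, 95.4 and 96.0 to 149, 158 and 148 CPM (0.73 ± 0.13, adjusted p = 0.000131) and by 0.79 ± 0.18. The related HAB1 rose by 0.64 ± 0.16. The hydroxylase CYP707A3, which degrades abscisic acid, rose from 12.9, 9.42 and 12.5 to 38.3, 17.2 and 17.8 CPM (1.07 ± 0.32, adjusted p = 0.0165). The call of CYP707A3 was lost in 3 of 15 alternatives, whose adjusted p ran from 2.43e-06 to 0.182, namely without 4 h replicate 1 (adjusted p = 0.182), without control replicate 2 (adjusted p = 0.0618) and with the groups compared alone (adjusted p = 0.0564). CYP707A3 had a log2 fold change of 0.62 without 4 h replicate 1. The 1 fall was the receptor PYL4, named after its values were seen (-0.42 ± 0.15). The call of PYL4 was lost in 9 of 15 alternatives, whose adjusted p ran from 0.000101 to 0.287, among them without 4 h replicate 1, 2 or 3 or control replicate 1, 2 or 3 (adjusted p from 0.0568 to 0.287). PYL4 had a log2 fold change of -0.27 without 4 h replicate 1 and of -0.27 without control replicate 2. Of 12 jasmonate genes, 1 rose (JAZ1, 0.62 ± 0.21) and 1 fell (AOS, -0.40 ± 0.13), against 22.5% of all tested genes called. The call of JAZ1 was lost in 5 of 15 alternatives, whose adjusted p ran from 0.0039 to 0.141, namely without 4 h replicate 1 or 2 or control replicate 1 or 3 (adjusted p from 0.0781 to 0.141) and with total count scaling (adjusted p = 0.0504). The call of AOS was lost in 5 of 15 alternatives, whose adjusted p ran from 0.0127 to 0.18, namely without 4 h replicate 2 or 3 or control replicate 2 or 3 (adjusted p from 0.0586 to 0.11) and with libraries without a suffix alone (adjusted p = 0.18). MYC2 (-0.19 ± 0.09) and VSP2 (-0.90 ± 0.51) were not called. Of 10 genes of indolic defence, WRKY33 rose (0.56 ± 0.19) and CYP79B2 fell (-0.66 ± 0.23), near the share called among all tested genes. The call of WRKY33 was lost in 6 of 15 alternatives, whose adjusted p ran from 0.00233 to 0.511, among them without 4 h replicate 2 or 3 or control replicate 1 or 3 (adjusted p from 0.103 to 0.137). WRKY33 had a log2 fold change of 0.84 without control replicate 2. The call of CYP79B2 was lost in 6 of 15 alternatives, whose adjusted p ran from 0.00552 to 0.132, namely without 4 h replicate 1, 2 or 3 or control replicate 1 or 3 (adjusted p from 0.0866 to 0.132) and with no filter (adjusted p = 0.0599).

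Rises outnumbered falls in the families of glutathione S-transferases, UDP-glycosyltransferases and NAC factors. Over all tested genes, 10.6% rose and 11.9% fell. Of 52 tested glutathione S-transferases, 23 rose and 8 fell, and their summed level was 7385 to 9203 CPM in the controls and 12660 to 14953 CPM at 4 h. GSTU4 rose from 3.28, 4.64 and 3.33 CPM to 22.4, 22.2 and 17.3 CPM (2.46 ± 0.25, adjusted p = 1.07e-07) and GSTU2 from 36.04, 39.6 and 36.7 to 107, 95.3 and 78.8 CPM (1.32 ± 0.13, adjusted p = 7.54e-08). Both groups of libraries were apart in each gene. Of 110 UDP-glycosyltransferases 25 rose and 15 fell. UGT73B3 rose from 129.5, 123 and 139.8 to 414, 317 and 317 CPM (1.42 ± 0.13, adjusted p = 8.53e-09) and UGT73B2 by 1.28 ± 0.12; these are neighbouring, similar genes whose reads may be shared. Of 170 cytochrome P450 genes 25 rose and 27 fell. Of 60 NAC factors, 19 rose and 1 fell, among them NAC6, from 16.7, 16.3 and 17.9 to 49.8, 54.8 and 47.9 CPM (1.58 ± 0.14, adjusted p = 5.24e-09), and NAC102 (1.04 ± 0.10). WRKY factors had 12 rises and 5 falls among 54, with WRKY22 rising from 5.38, 4.003 and 5.11 to 20.06, 18.4 and 14.7 CPM (1.88 ± 0.15, adjusted p = 1.89e-09). The MYB factor MYB108 rose from 0.197, 0.327 and 0.280 to 6.73, 4.77 and 6.30 CPM (4.44 ± 0.65, adjusted p = 1.83e-05). Of 62 homeobox genes, 10 rose and 7 fell, with the auxin-inducible HAT2 rising by 1.51 ± 0.17.

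Nutrient genes moved in both directions within their lists, where 10.6% of all tested genes rose and 11.9% fell. Of 7 nitrate genes 3 fell and 1 rose, with a median of -1.10. The nitrite reductase NIR1 fell from 332, 264 and 300.2 CPM to 148, 78.4 and 101 CPM (-1.45 ± 0.30, adjusted p = 0.000822). The nitrate transporter and sensor NRT1.1 fell from 582, 594 and 579.5 to 341, 162.1 and 183 CPM (-1.36 ± 0.30, adjusted p = 0.00146). NRT3.1, a partner of the high-affinity transporters, rose from 242, 218 and 240.5 to 330.3, 386 and 381 CPM (0.65 ± 0.11, adjusted p = 0.000143). The third fall was that of NIA1, given above, while NIA2, the other nitrate reductase, was not called (-1.10 ± 0.44, adjusted p = 0.0716). Of 14 iron uptake genes, 4 rose and 2 fell, with the falls near the share over all tested genes. The bHLH factor BHLH39 rose from 26.7, 81.4 and 23.96 to 179, 196 and 187 CPM (2.09 ± 0.30, adjusted p = 1.33e-05). BHLH101 rose by 1.65 ± 0.43 and the iron sensor BTS from 146, 184 and 169.8 to 397, 379 and 361 CPM (1.19 ± 0.13, adjusted p = 1.80e-07). The proton pump AHA2 fell from 3499, 4032 and 3859.9 to 2790.1, 2210.1 and 2019 CPM (-0.70 ± 0.16, adjusted p = 0.00281). The ferrous iron transporter IRT1 stood at 254, 639.5 and 290.1 and 27.6, 121 and 199.9 CPM and was not called (-1.76 ± 0.67, adjusted p = 0.0571). Control replicate 2 held the highest level of BHLH39 and IRT1 among the controls. Without that library the log2 fold change of BHLH39 was 2.90 (adjusted p = 7.44e-09) and that of IRT1 was -1.21 (adjusted p = 0.239). BHLH38 rose (1.18 ± 0.38), and CYP82C4, named after its values were seen, fell (-2.41 ± 0.88). The call of BHLH38 was lost in 6 of 15 alternatives, whose adjusted p ran from 0.000523 to 0.243, among them without 4 h replicate 2 or 3 or control replicate 1 or 3 (adjusted p from 0.0557 to 0.138). BHLH38 had a log2 fold change of 1.96 without control replicate 2. The call of CYP82C4 was lost in 8 of 15 alternatives, whose adjusted p ran from 0.00551 to 0.178, among them without 4 h replicate 1 or 2 or control replicate 1, 2 or 3 (adjusted p from 0.0638 to 0.178). The calls of NRT1.1 and AHA2 were lost with the libraries without a suffix alone.

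Members of several wall-modifying families fell more often than they rose. Over all tested genes, 10.6% rose and 11.9% fell. Of 22 xyloglucan endotransglucosylase/hydrolases, 11 fell and 2 rose, with a median of -0.73. XTH15 fell from 13.1, 10.7 and 12.7 CPM to 4.70, 4.99 and 5.26 CPM (-1.29 ± 0.21, adjusted p = 4.80e-05), while XTH30 rose from 39.1, 46.1 and 39.7 to 88.7, 112 and 110.4 CPM (1.32 ± 0.19, adjusted p = 1.31e-05). Of 110 pectin methylesterases and inhibitors, 31 fell and 12 rose. With the libraries without a suffix alone, 6 of the former family and 19 of the latter fell. Of 60 peroxidases, 13 fell and 5 rose, and the fall of smallest p was that of AT4G30170, from 80.7, 80.8 and 68.2 to 12.9, 11.2 and 21.3 CPM. Of 23 expansins, 5 fell and 2 rose; EXLA2 rose by 1.49 ± 0.20 and EXPA8 fell from 1.505, 0.368 and 1.14 to 0.10004, 0 and 0.0781 CPM (-4.00 ± 0.74, adjusted p = 0.00029). GDSL lipases had 10 falls and 5 rises among 54. Of 28 aquaporins 2 rose and 4 fell, near the shares of all tested genes. Among these falls was that of the boric acid channel NIP6;1 (-1.99 ± 0.41, adjusted p = 0.000849). Of 317 ribosomal protein genes, 4 rose and 13 fell. Of 47 histone genes, 9 rose and none fell, but with the libraries without a suffix alone 2 rose and 6 fell.

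Markers of other cell types are given beside these groups because some of them were called too. Of all tested genes 22.5% were called, and the shares of xylem and phloem markers called were below that. Of 10 root hair and epidermis markers, 3 fell (COBL9 -4.06 ± 1.35, RSL4 -2.06 ± 0.73, XTH14 -1.76 ± 0.63) and none rose. Their summed level was 12.26 to 20.19 CPM in the controls and 5.78 to 6.69 CPM at 4 h. The call of COBL9 was lost in 7 of 14 alternatives, whose adjusted p ran from 0.00938 to 0.232, among them without 4 h replicate 1, 2 or 3 or control replicate 1 or 3 (adjusted p from 0.0539 to 0.111). The call of RSL4 was lost in 6 of 14 alternatives, whose adjusted p ran from 0.0144 to 0.169, namely without 4 h replicate 1 or 2 or control replicate 1, 2 or 3 (adjusted p from 0.0707 to 0.169) and with no filter (adjusted p = 0.0504). The call of XTH14 was lost in 10 of 14 alternatives, whose adjusted p ran from 0.00162 to 0.241, among them without 4 h replicate 1, 2 or 3 or control replicate 1, 2 or 3 (adjusted p from 0.0654 to 0.112). Of 11 xylem markers, 2 early regulators fell (VND6 -1.49 ± 0.38, MYB83 -1.01 ± 0.36), and the late genes XCP1 (-0.05 ± 0.13) and XCP2 (-0.07 ± 0.14) were not called. The call of MYB83 was lost in 8 of 14 alternatives, whose adjusted p ran from 0.0126 to 0.165, among them without 4 h replicate 1, 2 or 3 or control replicate 1, 2 or 3 (adjusted p from 0.0723 to 0.165). Of 6 phloem markers, APL fell (-0.39 ± 0.09), and of 4 markers of pericycle and stele WOL (-0.52 ± 0.13) and HKT1 (-0.74 ± 0.26) fell. The call of HKT1 was lost in 9 of 15 alternatives, whose adjusted p ran from 0.00325 to 0.156, among them without 4 h replicate 1, 2 or 3 or control replicate 1, 2 or 3 (adjusted p from 0.0608 to 0.126). Of 7 shoot markers 3 fell, with RBCS1A going from 89.5, 58.0 and 75.2 to 33.1, 18.0 and 25.8 CPM (-1.53 ± 0.34, adjusted p = 0.0016). The part of cell composition in the falls of wall, strip and cell cycle genes was not tested.

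The same treatment and time in slr-1 roots, which lack the endodermal transgene, was the closest comparison in the series. The difference between the responses (CASP1::shy2-2/slr-1 change minus slr-1 change) was called for 2501 genes (11.9%), 1238 with a higher value (5.91%) and 1263 with a lower value (6.03%) in CASP1::shy2-2/slr-1. The median over all genes was -0.03. This count rested on single libraries: it was 919 without slr-1 control replicate 1 and 4361 without slr-1 control replicate 3, the slr-1 control that stood apart. The counts of both repressor genes responded differently. With the transgene the IAA3 count pools transgene and native reads, so its difference cannot be read as that of the native gene alone. IAA3 went in slr-1 from 42.4, 38.4 and 39.3 to 83.9, 82.8 and 74.2 CPM, and the difference was -0.99 ± 0.17 (adjusted p = 0.000937). IAA14 stood at 5.40, 4.91 and 6.78 and 22.6, 15.4 and 12.7 CPM in slr-1 (difference -1.97 ± 0.40, adjusted p = 0.00348). For LBD18 the slr-1 libraries went from 3.22, 3.62 and 3.63 to 32.8, 31.4 and 28.7 CPM, and the difference was -2.03 ± 0.20 (adjusted p = 8.93e-07). Both genotypes started near the same LBD18 level, and the treated libraries of the genotypes did not overlap. The difference was not called for IAA19 (-0.55 ± 0.27, adjusted p = 0.165), IAA13 (-0.16 ± 0.19, adjusted p = 0.604), GH3.5 (-0.09 ± 0.23, adjusted p = 0.829), WOX11 (-0.29 ± 0.30, adjusted p = 0.543) and LBD29 (0.84 ± 0.43, adjusted p = 0.194). A p that misses the threshold does not show equal responses.

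GH3.2 and GH3.3 differed in the untreated level. Without NAA, GH3.2 was counted at 32.7, 34.5 and 38.7 CPM in slr-1 and at 165, 218 and 171 CPM in roots with the transgene. At 4 h the levels were 595, 608 and 761 CPM in slr-1 and 710.1, 880.2 and 697 CPM with the transgene (difference of the responses -2.17 ± 0.23, adjusted p = 1.85e-06). The untreated groups of the genotypes did not overlap and the treated groups did. For GH3.3 the controls stood at 35.0, 38.0 and 81.3 and 143, 197 and 152 CPM and the treated libraries at 1032, 1078 and 1269 and 1041, 806 and 722 CPM in that order of genotypes (difference -2.07 ± 0.31, adjusted p = 0.000172). Here too only the untreated groups were apart.

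Of the gene lists used here, suberin had the largest share of members called in the difference between the genotypes. Of its 16 genes, 14 had a lower response in CASP1::shy2-2/slr-1, with differences from -2.91 to -0.86 on the log2 scale, none a higher one, and the median difference was -1.51 against -0.03 for all genes. FAR4, a reductase that makes primary alcohols, went from 124, 131 and 151 to 125, 137 and 119 CPM here and from 141, 147 and 189 to 535, 500.2 and 479 CPM in slr-1 (difference -1.76 ± 0.15, adjusted p = 6.06e-08). The exporter ABCG20 went from 26.2, 41.3 and 31.9 to 50.0, 40.9 and 31.0 CPM here and in slr-1 from 22.6, 26.9 and 33.4 to 190.2, 174 and 163.3 CPM (difference -2.38 ± 0.31, adjusted p = 2.94e-05). GPAT7 went in slr-1 from 5.09, 4.96 and 5.88 to 136, 103 and 65.0 CPM (difference -2.91 ± 0.44, adjusted p = 0.000217). In all 3 genes the controls of the genotypes overlapped, and the treated slr-1 libraries lay above every CASP1::shy2-2/slr-1 library. CYP86A4, a fatty acid hydroxylase outside the list, had the largest difference among the 10 of smallest p (-3.86 ± 0.41, adjusted p = 1.85e-06). Of the MYB factors of suberin MYB9 (-1.82 ± 0.34, adjusted p = 0.00161) and MYB53 (-1.29 ± 0.24, adjusted p = 0.00156) were lower, and MYB41 was not called (-1.25 ± 0.47, adjusted p = 0.0784). Of 15 Casparian strip genes none was called in this difference; CASP1 went in slr-1 from 21.3, 10.5 and 57.0 to 2.37, 1.63 and 8.26 CPM (difference 0.59 ± 0.89, adjusted p = 0.69) and ESB1 had a difference of -0.30 ± 0.41 (adjusted p = 0.657). Of 21 cell cycle genes 1 was called, the cytokinesis syntaxin KN (0.53 ± 0.15, adjusted p = 0.0232). The call of KN was lost in 5 of 21 alternatives, whose adjusted p ran from 0.00059 to 0.0854, namely without 4 h replicate 3 or slr-1 4 h replicate 1 or 2 or slr-1 control replicate 1 (adjusted p from 0.0664 to 0.0812) and with the groups compared alone (adjusted p = 0.0854).

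**Figure D4:**
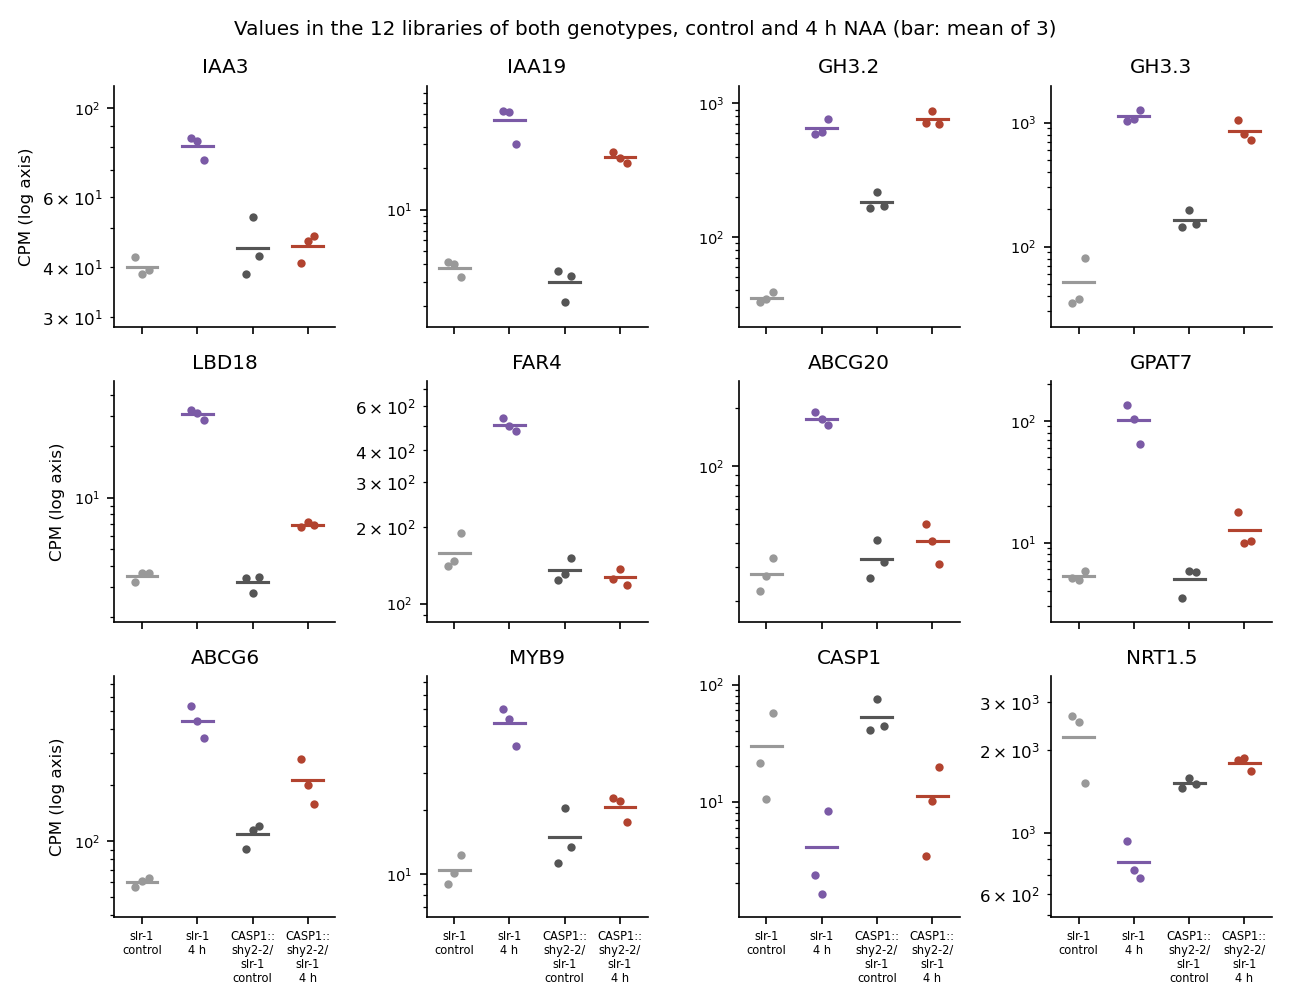
CPM on a log axis for 12 genes in the 12 libraries of CASP1::shy2-2/slr-1 and slr-1, control and 4 h of NAA, 1 point per library with a bar at the mean of 3. FAR4, ABCG20, GPAT7 and LBD18 reach higher levels at 4 h in slr-1, GH3.2 and GH3.3 differ in the controls, and CASP1 is lower after NAA in both genotypes.

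Other groups differed in part, where 5.91% of all tested genes had a higher and 6.03% a lower response. LAX3 fell here and in slr-1 went from a mean of 79.8 ± 19.4 to one of 99.8 ± 4.93 CPM (SD, n = 3; difference -1.44 ± 0.30, adjusted p = 0.00444). AT3G24240, a receptor-like kinase, went here from 16.7, 17.5 and 22.3 to 7.73, 4.99 and 8.62 CPM (-1.40 ± 0.19) and in slr-1 from 19.2, 18.8 and 28.9 to 76.4, 70.2 and 68.4 CPM (difference -3.09 ± 0.27, adjusted p = 6.06e-08). CKX5 (-1.61 ± 0.19), AT5G40270 (-1.28 ± 0.13), ENODL16 (-1.79 ± 0.19) and AT1G78530 (-1.03 ± 0.12) also had a lower response. AT5G43180, of unknown function, had a higher one, rising here from 47.3, 62.3 and 49.7 to 112, 104 and 123 CPM against 159.9, 145 and 99.4 and 67.5, 66.9 and 93.9 CPM in slr-1 (difference 1.91 ± 0.23, adjusted p = 1.09e-05). Of 15 ARF genes 6 were lower, among them ARF16 (-0.86 ± 0.13, adjusted p = 0.000228) and ARF6 (-0.83 ± 0.18, adjusted p = 0.0057), and none higher. Of 22 transport genes 6 were lower, among them PID (-2.10 ± 0.34, adjusted p = 0.000386), and none higher. Of 28 aquaporins, 11 were higher and 1 lower. NRT1.5, which loads nitrate into the xylem, stood in slr-1 at 2668, 2522 and 1521 and 935, 728 and 687 CPM, against 1455, 1581 and 1498 and 1833, 1868 and 1670.2 CPM here (difference 1.76 ± 0.31, adjusted p = 0.00106). The phloem markers SUC2 (1.32 ± 0.33, adjusted p = 0.0118) and PP2-A1 (1.21 ± 0.25, adjusted p = 0.00395) were higher in the same difference, and their part in it was not tested. The calls of ARF6 and SUC2 were lost with the libraries without a suffix alone.

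The 4 h libraries were also compared with those at 2 h of the same genotype. The change from 2 to 4 h was called for 2384 genes (11.4%), 1117 rising (5.33%) and 1267 falling (6.05%), with a median of -0.02 over all genes. It fell to 303 when the groups compared were fitted alone and was 3413 without 2 h replicate 2, whose code ends in x and which stood apart from its group. The codes of 2 h replicates 1 and 3 end in n, while that of 4 h replicate 1 has no letter. Time and letter therefore coincide in part. With suffix n as a term, in a fit without the library ending in x, 1853 genes rose. GH3.3 rose further, from 428, 399 and 387 CPM at 2 h to 1041, 806 and 722 CPM at 4 h (1.08 ± 0.22, adjusted p = 0.00148). LBD29 rose from 1.498, 1.73 and 1.37 to 5.25, 2.90 and 3.44 CPM (1.33 ± 0.30, adjusted p = 0.00371). IAA19 (0.21 ± 0.17, adjusted p = 0.477), IAA13 (0.39 ± 0.14, adjusted p = 0.0641) and WOX11 (-0.14 ± 0.18, adjusted p = 0.684) were not called between these times. WOX11 stood at 7.34, 9.07 and 7.47 CPM at 2 h, already above the controls. The flavonoid genes CHS and CHI rose between 2 and 4 h, CHS from 717, 662 and 637 to 2208, 2039.5 and 1832 CPM (1.59 ± 0.18, adjusted p = 1.49e-06) and CHI by 1.08 ± 0.18 (adjusted p = 0.000256). AT2G37870 rose from 7.55, 17.9 and 5.76 to 82.3, 52.2 and 30.2 CPM (2.397 ± 0.42, adjusted p = 0.000365). The calls of LBD29 and AT2G37870 were lost when the groups compared were fitted alone.

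Several stress and defence genes fell between 2 and 4 h. PLA2A fell from 101, 87.9 and 83.8 CPM to 8.48, 16.03 and 17.5 CPM (-2.70 ± 0.40, adjusted p = 5.56e-05). RD29A fell from 513, 579 and 738 to 129, 195 and 236 CPM (-1.71 ± 0.22, adjusted p = 1.13e-05). CYP71A12, of the camalexin pathway, fell from 192, 476 and 216 to 7.03, 2.25 and 2.81 CPM (-6.19 ± 0.70, adjusted p = 1.76e-06); it has a near-identical neighbour, CYP71A13, so its count is uncertain. All treated libraries of these genes at 4 h lay below those at 2 h. Of 10 indolic defence genes, 8 fell between these times and none rose, where 6.05% of all tested genes fell. Among these 8, the call of CYP71A12 was kept in all 14 alternatives. The calls of CYP79B3, CYP79B2 and WRKY33 were lost in 8, 5 and 5 of 14. CYP79B2 had a log2 fold change of -0.22 without 2 h replicate 2 (adjusted p = 0.411). Large falls were also those of AT1G26380, a berberine-bridge-like enzyme (-3.72 ± 0.51, adjusted p = 2.33e-05), AT5G38910 (-4.06 ± 0.63, adjusted p = 0.000105) and RSH2 (-3.68 ± 0.55, adjusted p = 7.00e-05). Without 2 h replicate 2 the value of RSH2 was -2.34 (adjusted p = 0.00052). The calls of AT5G38910 and RSH2 were lost when the groups compared were fitted alone. Of 15 Casparian strip genes, 5 fell between 2 and 4 h, but each of these calls was lost in several alternatives. ESB1 fell from 54.0, 97.2 and 40.8 to 21.6, 25.9 and 35.3 CPM (-1.21 ± 0.30, adjusted p = 0.00755). The call of ESB1 was lost in 4 of 14 alternatives, whose adjusted p ran from 0.00101 to 0.146, among them without 2 h replicate 2 (adjusted p = 0.0729) and without 4 h replicate 1 (adjusted p = 0.0637). ESB1 had a log2 fold change of -0.76 without 2 h replicate 2. CASP1 fell by 2.095 ± 0.63 on the log2 scale (adjusted p = 0.0305), a call lost in 6 of 14 alternatives, among them without 2 h replicate 1 or 2 or 4 h replicate 1 or 2 (adjusted p from 0.0521 to 0.165). PER64 fell by 1.90 ± 0.57 (adjusted p = 0.0291), a call lost in 5 of 14, among them without 2 h replicate 2 or 4 h replicate 1 or 2 (adjusted p from 0.0976 to 0.165). The other 2 falls were smaller, those of AT4G34600 (-0.33 ± 0.10, adjusted p = 0.0318) and of the regulator SHR (-0.26 ± 0.09, adjusted p = 0.0446). They were lost in 10 and 11 of 14 alternatives, among them without any single 2 h or 4 h library (adjusted p from 0.0501 to 0.129 for AT4G34600 and from 0.0627 to 0.295 for SHR). Of 21 cell cycle genes 7 fell and 1 rose, with CDC20.1 going from 23.5, 24.9 and 23.8 to 15.3, 15.6 and 13.4 CPM (-0.70 ± 0.11, adjusted p = 0.000104).

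The later times put the 4 h levels in order. Mean IAA19 went from 3.001 ± 0.756 CPM in the controls to 23.99 ± 2.27 at 4 h and 51.0 ± 1.88 at 24 h (mean ± SD, n = 3), and WOX11 from 0.776 ± 0.0119 to 7.24 ± 0.824 and 22.8 ± 2.19 CPM. GH3.2 stood at 762 ± 102 CPM at 4 h, 886 ± 220.5 at 16 h and 493 ± 58.9 at 24 h. Mean CASP1 went from 53.3 ± 18.8 CPM to 11.1 ± 8.25 at 4 h and 0.839 ± 0.136 at 24 h. PLA2A was at 91.1 ± 9.22 CPM at 2 h, 14.01 ± 4.85 at 4 h and 1.56 ± 1.44 at 8 h, against 1.89 ± 0.532 in the controls. These series share the control libraries and are given as levels, with no test.

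**Figure D5:**
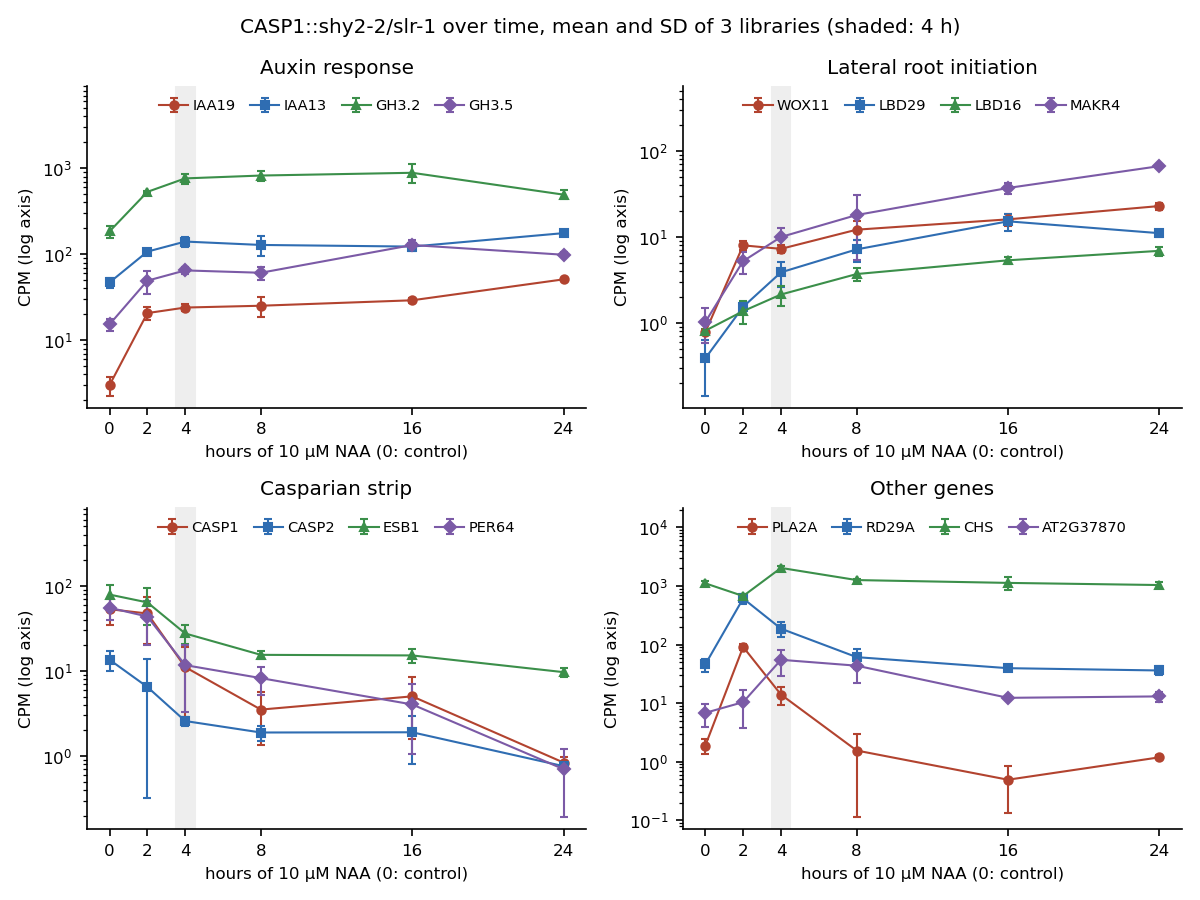
Mean CPM on a log axis with SD over 3 libraries against hours of 10 µM NAA in CASP1::shy2-2/slr-1 (0 stands for the untreated controls, 4 h is shaded). Mean IAA19 and WOX11 are highest at 24 h, the Casparian strip genes are lower at 4 h and lowest at 24 h, and PLA2A and RD29A peak at 2 h; the lower error bar of CASP2 at 2 h stops at 5% of its mean.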

How the data were processed

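RNA was sequenced from 36 root libraries, 12 groups of 3. Reads were trimmed with cutadapt 1.3, aligned with STAR 2.4.0a to TAIR10 and counted per gene with HTSeq 0.6.1, per the submitters' processing notes. The deposited values were raw read counts per gene, per the file headers and values, and whether counting used strand is not given in the sources used here. The 5 summary categories of the counter were left out of library sizes and tests. All libraries were fitted together with edgeR 4.0.16 in R 4.3.3 (TMM factors 0.939 to 1.066, filterByExpr, 1 mean per group, robust quasi-likelihood F-test, 24 residual degrees of freedom), and p-values were adjusted by Benjamini-Hochberg over 20939 genes. The procedure was tested on simulated data. Counts of 39.1 to 48.5 M reads per library make CPM under about 0.1 rest on few reads. DESeq2 1.42.0, other scalings, filters and thresholds, the replicate block, library suffixes and single libraries were tried as alternatives.

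The members and gene lists were chosen with earlier results of these data known. Named genes are IAA3, IAA14, CASP1, the 12 largest changes in each direction at sufficient level without overlap, the 8 smallest p in each direction, up to 5 called and 2 uncalled genes per list, up to 2 called genes per family, and the leading genes of the other 2 comparisons. IAA8, IAA27, LBD17, LRP1, CYCD3;1, CYCA2;4, PIN5, FAH1, EIN2, PYL4, ARF4, KCS2 and CYP82C4 were named after their values were seen. So were C4H and 4CL1, which are not among the named genes followed through the alternatives. Some named genes are not reported here. Gene names, positions and sequences come from RefSeq TAIR10.1.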

Additional observations from a re-analysis of the deposited data

Results flagged for a closer look

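Each gene below was flagged because the test of the difference between the genotypes in the 4 h response passed an adjusted p of 0.05 (edgeR's quasi-likelihood test over all tested genes). The number after a gene is that difference, the log2 change in CASP1::shy2-2/slr-1 minus the log2 change in slr-1, from 3 libraries in each of 4 groups. Of the genes named in the report, 57 were flagged, 49 with a lower and 8 with a higher response in CASP1::shy2-2/slr-1. Some of these genes were named by this same test, so the counts do not describe the response of genes in general. Over all tested genes, 1263 (6.03%) had a lower and 1238 (5.91%) a higher response.

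Suberin genes and their factors were ABCG20 (-2.38), ABCG6 (-1.92), ASFT (-1.03), FAR1 (-1.09), FAR4 (-1.76), FAR5 (-0.88), GPAT7 (-2.91), KCS2 (-1.52), KCS20 (-1.01), MYB53 (-1.29), MYB9 (-1.82) and AT1G74460 (-1.29). The fatty acid hydroxylase was CYP86A4 (-3.86). Auxin signalling and response genes were IAA3 (-0.99), IAA8 (-0.40), IAA14 (-1.97), ARF4 (-0.62), ARF6 (-0.83), ARF8 (-0.73), ARF9 (-0.66), ARF16 (-0.86), ARF19 (-0.64) and LBD18 (-2.03). The IAA3 count includes reads of the transgene in CASP1::shy2-2/slr-1 only. Genes of auxin inactivation, synthesis and transport were GH3.2 (-2.17), GH3.3 (-2.07), AT1G14120 (-1.12), AT1G14130 (-0.87), YUC6 (-0.72), AUX1 (-0.62), LAX3 (-1.44), PID (-2.10), PILS3 (-0.64) and PIN5 (-1.72).

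Other genes with a lower response were ACR4 (-0.89), AOS (-0.81), AT1G78530 (-1.03), AT3G24240 (-3.09), AT5G40270 (-1.28), BGLU10 (-0.37), CKX5 (-1.61), CYP707A3 (-1.83), CYP79B2 (-1.61), EBF1 (-0.60), ENODL16 (-1.79), GSTU2 (-0.56), HSL2 (-1.12), NIP6;1 (-1.92), NIR1 (-1.26) and VSP2 (-2.38). Those with a higher response were AT5G43180 (1.91), BAS1 (0.86), KN (0.53), NRT1.5 (1.76), PP2-A1 (1.21), SEN1 (6.30), SUC2 (1.32) and XTH30 (1.35). SEN1 has the highest value and a wide spread within groups: in slr-1 it was at 81.9, 77.6 and 13.7 CPM in the controls and at 0.99, 8.54 and 12.6 CPM at 4 h.

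Several of these calls were lost in many of 21 alternatives (20 for NIP6;1), namely that of YUC6 in 14, NIR1 in 13, GSTU2 in 12, BGLU10 in 10, AT1G14130, NIP6;1 and VSP2 in 8 each, ASFT and KN in 5 each, ARF9 in 4 and CYP707A3 in 2. Each but that of CYP707A3 was lost without slr-1 control replicate 1, among other libraries or settings, where the adjusted p was 0.0711 for ARF9, 0.0501 for ASFT, 0.0863 for AT1G14130, 0.109 for BGLU10, 0.168 for GSTU2, 0.0664 for KN, 0.0884 for NIP6;1, 0.133 for NIR1, 0.0722 for VSP2 and 0.147 for YUC6. Losses of CYP707A3 included that without slr-1 4 h replicate 1 (adjusted p = 0.0526).

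All groups hold 3 libraries, so single libraries were not tested as outliers.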

How the results depend on the processing

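No call of a named gene reversed under an alternative. Of the calls of named genes, 143 of 206 against control, 45 of 72 in the difference between genotypes and 21 of 79 between 2 and 4 h were kept in every alternative. Scaling with RLE factors called 4728 genes against control, DESeq2 5184, suffix n as a term 5057 and the groups compared alone 4361. At an adjusted p of 0.01, 2529 genes were called (1251 rising, 1278 falling), and 1193 (535 and 658) with an absolute log2 fold change of at least 1. With a mean CPM of at least 5, 1650 fell. For the difference between genotypes the stricter p left 613 (229 higher, 384 lower) and the fold threshold 994 (449 and 545). Between 2 and 4 h they left 1060 (455 rising, 605 falling) and 520 (93 and 427). The groups compared alone gave 303 between 2 and 4 h (96 and 207), and suffix n as a term gave 1853 rising. The cause of these shifts was not tested.

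Leaving out 1 library gave 2985 to 4484 calls against control (1619 to 2302 rising, 1366 to 2182 falling). It gave 919 to 4361 for the difference between genotypes (430 to 2341 higher, 489 to 2020 lower) and 1265 to 3413 between 2 and 4 h (551 to 2045 rising, 620 to 1368 falling). Same-numbered 4 h and control libraries deviated together with correlations of 0.18, 0.144 and -0.074, so the numbers were not taken as pairs, and the replicate block changed the count to 4646 against control, 2481 for the genotypes and 2308 between 2 and 4 h. The comparison of 2 and 4 h with libraries without a suffix alone could not be fitted, since every 2 h library has a suffix. For genes such as PUCHI, LBD17 and GATA23, with at most a few reads per control library, small differences were not detectable at this depth.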
